A study of Macaca mulatta with 24 samples.

Results

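Endometrium, the lining of the uterus in which an embryo implants, was compared between day 4 and day 2 of conception cycles in rhesus monkeys. The comparison used the 4 arrays of conception day 4 and the 4 of conception day 2, out of 24 arrays in the series, and the members were taken from the day and cycle type in the labels. Conception cycles came from mated females in which pregnancy was proven. The source names count the day from fertilization and the descriptions count it from ovulation, so the starting point of the day count is not settled. The 4 conception day 6 arrays entered the fit as a further group, and non-mated arrays of the same days, 4 at day 2 and 4 at day 4, served for the comparison of cycle types. For 8 non-mated samples the title says day 2 while source name and description give a later day, which was followed. Each array was hybridised with Cy3-labelled RNA amplified from whole endometrial tissue, with no sorting of cells named in the labels. Whether each array stands for its own animal is not stated in the labels. The p-values therefore reflect the scatter among these samples alone, and that scatter may be technical.

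After ovulation the corpus luteum secretes progesterone, and the endometrium passes from growth under estrogen to secretion. Dividing epithelium leaves the cell cycle, glands load glycogen and secretory proteins, and the stroma prepares for decidualization. In conception cycles the cleaving embryo travels along the oviduct in these first days and enters the uterus before it attaches. Whole tissue holds glands, stroma, vessels and immune cells together, and in such bulk RNA fewer cells of a type and less RNA per cell cannot be told apart.

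Each level is the log2 of the processed signal after subtracting the array's own 75th percentile on that scale, so 0 is the signal that 75% of the probes do not exceed and a difference of 1 is a factor of 2 in signal. The share of probes well above background was 57.5% to 67.3% at day 2, compared with 53.3% to 60.5% at day 4. The file headers show that arrays were scanned either over a single range or over an extended range with a second, less sensitive scan. Day 2 replicates 1, 2 and 4 and day 4 replicate 4 had the single range, with 75th percentiles of 204 to 295 units, and the other 4 arrays had the extended range, with 1477 to 3284 units. Slide 7 held replicate 3 of each day, both scanned over the extended range, and slide 8 held replicate 4 of each day, both over the single range. Replicates 1 and 2 of both days were scanned on scan day 2, where day 2 had the single and day 4 the extended range, so on that scan day the range and the day cannot be told apart. The differences within slides 7 and 8 are therefore given beside the results as values free of that overlap, each from 1 array a day. The lowest level an array could show lay between -7.59 and -6.18 at day 2 and between -6.32 and -5.62 at day 4, which limits how far a dim gene can be followed downward at day 4.

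Epithelial and stromal markers were present on these arrays, with 9 of 10 epithelial and 9 of 10 stromal markers with a probe well above background on all 8. Markers of T and B cells were sparse, with 3 of 11 detected on all 8 arrays, and CD3G and MS4A1 among those detected on none. Day 2 replicate 2 stood apart in smooth muscle markers, with a mean level of 3.56 over 9 genes against 0.07 to 0.48 on the other day 2 arrays and 0.06 to 1.10 at day 4. Leaving that array out gave the same number of genes past the threshold.

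Of 11853 features tested, 7631 of them with a gene symbol, 0 passed an adjusted p of 0.05 in either direction by limma, so 0% of features were called. An unadjusted p under 0.05 was reached by 727 features, or 6.13%, with 323 higher and 404 lower at day 4. The lowest adjusted p was 0.257, and the median difference over all features was -0.01. All 4 day 4 arrays lay above all 4 day 2 arrays for 236 features (1.99%) and below them for 265 (2.24%). Among features that differed by more than 1 on the log2 scale, 212 were higher and 550 lower at day 4. A probe could be kept through day 2 alone, where the share of probes well above background ranged higher. The part of that filter in these counts was not tested. The median correlation between arrays over these features was 0.942 within day 2, 0.896 within day 4 and 0.910 between the days, so the day 4 arrays resembled each other no more than they resembled day 2 arrays. The values below are given as levels and differences, not as changes. Genes named from a list beyond its 2 smallest p-values were chosen after their values were seen.

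The genes with the smallest p-values among those lower at day 4 were TMEM61, HRH1, FSTL3, PDZK1, MCF2, KCNN4, GATA2, RIPOR2, PNMT and CFAP100, with adjusted p between 0.257 and 0.440 (limma). They include a histamine receptor, an activin inhibitor, a transcription factor of the progesterone response, a potassium channel and the enzyme that makes adrenaline. In all 10 every day 4 array lay below every day 2 array, which was the case for 2.24% of all features. The genes were chosen by these same values, so a lack of overlap was likely for any of them.

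**Figure D1:**
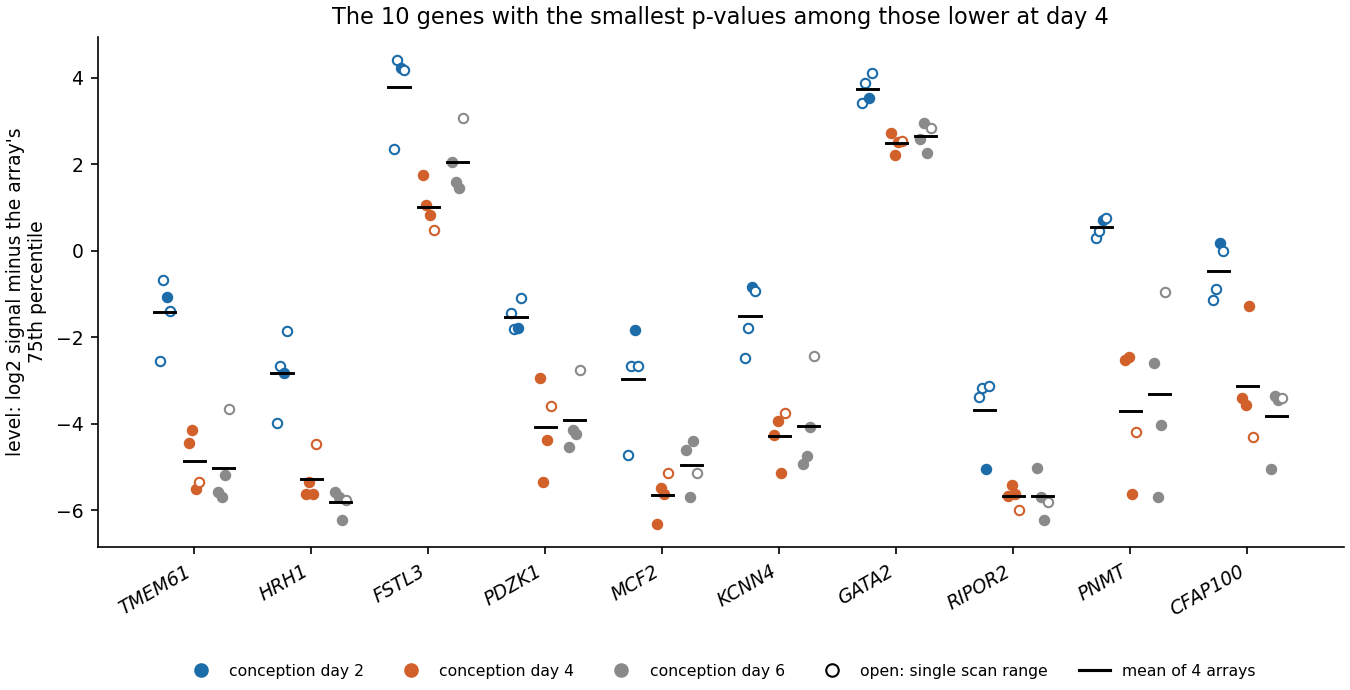
Levels on each array for the 10 genes with the smallest p-values among those lower at day 4. The vertical axis is log2 signal minus the array's 75th percentile; each point is 1 array, coloured by conception day, open where scanned over a single range, and bars are means of 4 arrays. The day 4 points lie below every day 2 point in each gene, and the day 6 mean lies below the day 2 mean in all 10. The genes were chosen by these day 2 and day 4 values.

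FSTL3 is a secreted follistatin-like protein that binds and blocks activin, and it was well above background on all 8 arrays. Its probe lies at chr19:430119-430178 of the rheMac2 build. The level of FSTL3 was 2.35, 4.41, 4.23 and 4.19 on day 2 arrays 1 to 4, and 1.75, 1.05, 0.82 and 0.48 on day 4 arrays 1 to 4. Day 2 replicate 1 was low, but still above every day 4 array. The difference was -2.77 ± 0.50 (SE, n = 4 and 4; adjusted p = 0.270, limma), and it was -3.42 on slide 7 and -3.71 on slide 8. Without day 2 replicate 1 the difference was -3.25 and passed the threshold with an adjusted p of 0.0258.

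GATA2, a transcription factor that acts with the progesterone receptor in the uterus, was well above background on all 8 arrays. The deposited position of the GATA2 probe is chr11:86363862-86363921. That position was not checked against a gene annotation, and whether the probe measures GATA2 was not tested. Its level was 3.43, 3.87, 3.53 and 4.11 on the day 2 arrays and 2.73, 2.22, 2.52 and 2.54 on the day 4 arrays. Both sets were narrow and did not overlap. The difference was -1.23 ± 0.25 (adjusted p = 0.270, limma), with -1.01 on slide 7 and -1.57 on slide 8.

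HRH1, the H1 histamine receptor, was well above background on all 4 day 2 arrays and on no day 4 array. Its level was -3.99, -2.65, -2.82 and -1.85 at day 2 and -5.62, -5.34, -5.62 and -4.47 at day 4, where replicate 3 lay at its lowest possible level. The measured difference was -2.44 ± 0.42 (adjusted p = 0.270, limma). Since the day 4 side has only a bound, HRH1 was at least 3.50-fold higher at day 2. Such a bound sets the day 2 mean against a floor for each day 4 array, namely the dimmest signal still well above background there or the probe's own signal if higher. Every gene given such a bound here passed the filter through day 2 alone, the group in which it is higher. The direction of these bounds is therefore partly set by the filter. No gene with a bound passed the threshold in the fit of all conception arrays. The HRH1 probe lies at chr2:49761196-49761255. Histidine decarboxylase (HDC), which makes histamine, was variable, with -3.43, -4.59, -4.64 and -6.56 at day 2 and -6.09, -5.63, -2.51 and -2.61 at day 4, so its groups overlapped.

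TMEM61, a transmembrane protein, had the smallest p of all features and a probe at chr1:57846192-57846251. It read -2.53, -0.67, -1.06 and -1.38 at day 2 and -4.44, -4.14, -5.5 and -5.35 at day 4. All day 4 arrays lay below the lowest day 2 array, and the probe was well above background on none of them. The difference was -3.44 ± 0.52 (adjusted p = 0.257, limma), or at least 8.27-fold higher at day 2. Without day 2 replicate 1 the adjusted p of TMEM61 was 0.0291, and without day 6 replicate 4, which enters only the estimate of the spread, it was 0.0224.

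PNMT, the enzyme that converts noradrenaline to adrenaline, was well above background on all 4 day 2 arrays and on 2 day 4 arrays. Its level was 0.29, 0.46, 0.72 and 0.76 at day 2, a tight set, and -2.52, -2.45, -5.62 and -4.18 at day 4, a wide one. The difference was -4.25 ± 0.90 (adjusted p = 0.304, limma), with -6.33 on slide 7 and -4.94 on slide 8. Day 4 replicate 3 lay at its lowest possible level, so the sizes of the mean and slide 7 differences depend on that floor. The PNMT probe lies at chr16:49766181-49766240.

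KCNN4, a calcium-activated potassium channel, read -2.48, -1.79, -0.83 and -0.93 at day 2 and -4.26, -3.94, -5.13 and -3.74 at day 4. PDZK1, a scaffold protein of apical membranes that responds to estrogen, read -1.45, -1.81, -1.78 and -1.08 at day 2 and -2.95, -5.35, -4.37 and -3.59 at day 4. Both were well above background on all 4 day 2 arrays, but KCNN4 on 1 and PDZK1 on 2 of the day 4 arrays. For both genes the day 4 arrays spread more widely than the gap between the groups. The differences were -2.76 ± 0.56 for KCNN4 and -2.53 ± 0.50 for PDZK1, each with an adjusted p of 0.270 (limma). Their probes lie at chr19:50231001-50231060 and chr1:125871102-125871161.

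MCF2, a guanine nucleotide exchange factor for small GTPases, read -4.71, -2.66, -1.84 and -2.67 at day 2 and -6.32, -5.49, -5.62 and -5.13 at day 4. RIPOR2, a regulator of a small GTPase, read -3.37, -3.17, -5.05 and -3.12 at day 2 and -5.67, -5.42, -5.62 and -6.00 at day 4. Neither was well above background on any day 4 array, and in each gene 1 day 2 array lay close to the day 4 set. MCF2 was at least 3.36-fold and RIPOR2 at least 2.05-fold higher at day 2. Without day 2 replicate 1 the adjusted p of MCF2 was 0.0258, and without day 2 replicate 3 that of RIPOR2 was 0.0281 (limma). HRH1 also passed without day 2 replicate 1 (adjusted p = 0.0258, limma). Outside the 10 genes, and named after their values were seen, THEG passed without day 2 replicate 3 (adjusted p = 0.022), and ZBED2 (0.0197) without day 6 replicate 4, both lower at day 4 (limma).

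CFAP100 encodes a protein of motile cilia. The CFAP100 level was -1.13, -0.87, 0.19 and -0.01 at day 2 and -3.41, -3.55, -1.27 and -4.30 at day 4, with day 4 replicate 3 only just below the day 2 arrays. The difference was -2.68 ± 0.61 (adjusted p = 0.440, limma). DNAI2, a dynein chain of the ciliary axoneme, read -2.61, -1.35, -1.25 and -1.53 at day 2 and -2.85, -2.68, -2.93 and -3.10 at day 4, again without overlap, a difference of -1.20 ± 0.33 (adjusted p = 0.565, limma). FOXJ1, the master regulator of motile ciliogenesis, read in the opposite direction at 0.90 ± 0.44. Of the 9 ciliated cell markers measured, of 11 with a probe and 16 listed, 7 had a lower and 2 a higher mean at day 4, with a median of -0.42. That median was 0.90 on slide 7 and 0.20 on slide 8, against -0.96 on scan day 2, so the list as a whole did not lie on 1 side.

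Among genes with higher means at day 4, the smallest p-values belonged to WLS, VAV3, FGFR4, CA6, MAP3K6, KIAA0182, PARP8, ITIH3, GADD45A and PSTK, with adjusted p between 0.440 and 0.528 (limma). In 8 of them the groups did not overlap, against 1.99% of all features in that direction, and in ITIH3 and GADD45A they did. These genes too were chosen by the same values, so a lack of overlap was likely for any of them. The differences ranged from 0.94 for PSTK to 2.81 for ITIH3.

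**Figure D2:**
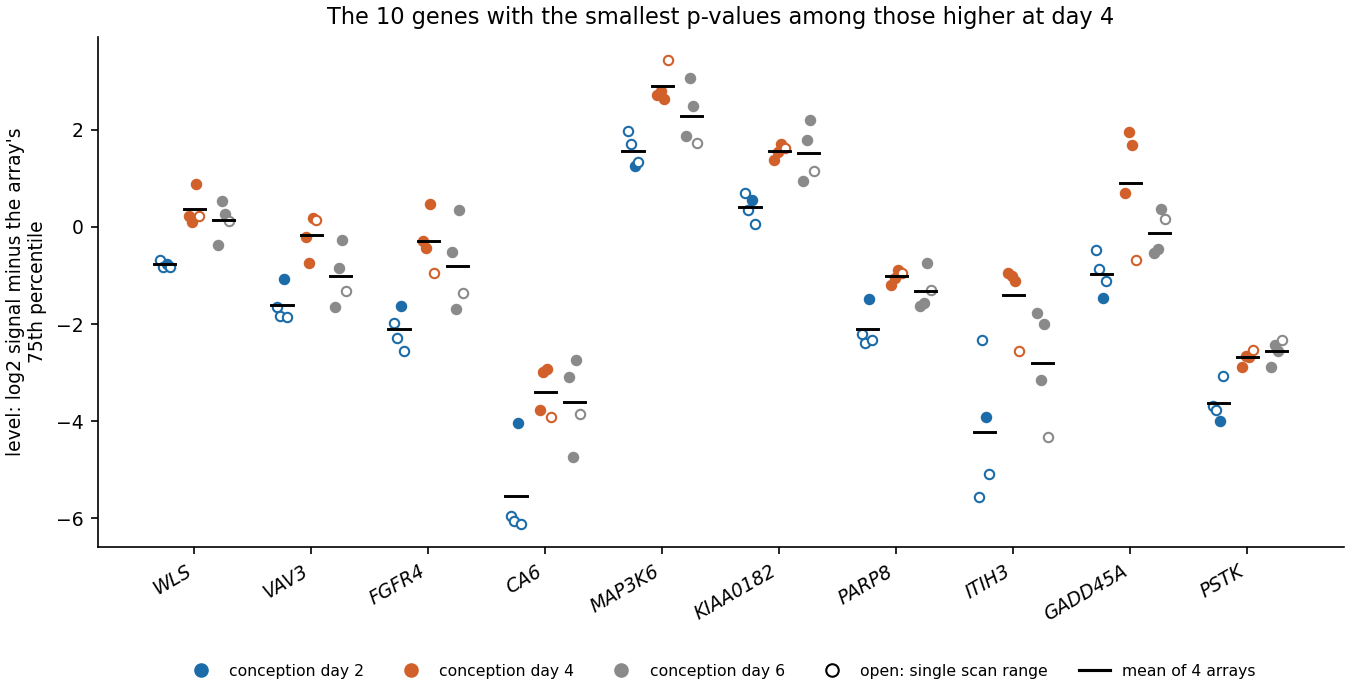
Levels on each array for the 10 genes with the smallest p-values among those higher at day 4. The vertical axis is log2 signal minus the array's 75th percentile; each point is 1 array, coloured by conception day, open where scanned over a single range, and bars are means of 4 arrays. The day 4 points lie above all day 2 points in 8 of the 10 genes, the exceptions being ITIH3 and GADD45A. The genes were chosen by these day 2 and day 4 values.

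WLS, the carrier protein without which cells cannot secrete Wnt ligands, had the smallest p in this direction. Its level was -0.67, -0.82, -0.76 and -0.82 at day 2 and 0.23, 0.09, 0.89 and 0.22 at day 4. Day 2 arrays lay close together and all day 4 arrays stood above them. The difference was 1.13 ± 0.26 (adjusted p = 0.440, limma), with 1.65 on slide 7 and 1.04 on slide 8. The WLS probe lies at chr1:70916424-70916483.

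VAV3, an exchange factor for small GTPases downstream of receptor kinases, read -1.65, -1.83, -1.07 and -1.86 at day 2 and -0.21, -0.73, 0.18 and 0.14 at day 4. FGFR4, a fibroblast growth factor receptor, read -1.97, -2.28, -1.64 and -2.55 at day 2 and -0.30, -0.43, 0.48 and -0.94 at day 4. In both genes the lowest day 4 array was above the highest day 2 array. The differences were 1.44 ± 0.34 for VAV3 (adjusted p = 0.441) and 1.81 ± 0.44 for FGFR4 (adjusted p = 0.484, limma). Their probes lie at chr1:110480599-110480658 and chr6:173605737-173605796.

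MAP3K6, a stress-activated kinase of the MAP kinase cascade, read 1.97, 1.71, 1.26 and 1.34 at day 2 and 2.71, 2.79, 2.63 and 3.44 at day 4. KIAA0182, listed under that name in the files, read 0.71, 0.36, 0.55 and 0.05 against 1.37, 1.53, 1.71 and 1.63. PARP8, a member of the poly(ADP-ribose) polymerase family, read -2.20, -2.38, -1.49 and -2.33 against -1.20, -1.05, -0.88 and -0.95. All 3 separated the days, with differences of 1.33 ± 0.33, 1.14 ± 0.29 and 1.08 ± 0.28 in that order. PSTK, a kinase in the synthesis of selenocysteine tRNA, differed by 0.94 ± 0.25.

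GADD45A, a stress and growth arrest gene, read -0.48, -0.86, -1.47 and -1.10 at day 2 and 0.70, 1.95, 1.69 and -0.69 at day 4. Day 4 replicate 4 lay inside the day 2 range, and the difference was 1.89 ± 0.50 (adjusted p = 0.521, limma), with 3.15 on slide 7 and 0.42 on slide 8. Its relative GADD45B differed by -1.0 ± 0.44, from 1.38 to 1.88 at day 2 to -0.52, 1.86, 0.24 and 0.86 at day 4. ITIH3, a plasma protein that binds hyaluronan, read -5.56, -2.33, -3.91 and -5.08 at day 2 and -0.95, -1.0, -1.11 and -2.56 at day 4. CA6, a secreted carbonic anhydrase, was well above background on 1 day 2 array and 3 day 4 arrays, and differed by 2.14 ± 0.53. After normexp background correction CA6 and PSTK, alone of the 20 leading genes, had the other direction, and the median over all features was -0.23.

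Genes of the progesterone response did not lie on 1 side. Of 30 listed genes 24 had a probe and 22 were measured, and 8 of these had a higher and 14 a lower mean at day 4, with a median of -0.15 against -0.01 over all features. 0 passed the threshold, and GATA2, described above, was the 1 member without overlap, against 2.24% of all features in that direction. HSD17B2, the enzyme that inactivates estradiol in glands under progesterone, read 1.07, 1.64, -0.33 and 1.30 at day 2. At day 4 it read -5.47, -3.06, -5.62 and -0.30, a wide spread, and day 4 replicate 4 lay just inside the day 2 range. It was well above background on 2 day 4 arrays, and replicate 3 lay at its lowest possible level, so the size of the difference is uncertain. The difference for HSD17B2 was -4.53 ± 1.56 (adjusted p = 0.780, limma) and with scan range as a covariate it was -2.45. HSD11B2, which inactivates cortisol, read 5.03, 5.65, 4.98 and 4.92 at day 2 and 5.29, 5.05, 4.17 and 2.84 at day 4.

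Day 4 replicate 3 differed from the other day 4 arrays in some progesterone-related genes, which were picked out after their values were seen. ZBTB16, a zinc finger factor induced by progesterone in stroma, read 3.62, 4.03, -3.02 and 2.47 on the day 4 arrays and 2.09 to 2.95 at day 2. WNT4, a ligand needed for decidualization, read 0.36, 0.84, -5.39 and -0.39 at day 4 and -0.65 to 1.12 at day 2. On that array IHH, the ligand of the epithelium that signals to stroma, was instead the highest of the 8 at 2.05. Progesterone receptor and estrogen receptor alpha carried no named probe here. PAEP, the secretory protein glycodelin, read -2.51, -1.22, -3.82 and -2.50 at day 2 and -2.60, 1.36, -1.0 and -3.05 at day 4, so its groups overlapped (1.19 ± 0.85). SPP1, osteopontin, spread from -5.15 to 2.51 at day 4 and from -3.13 to 1.39 at day 2. LIF, a cytokine of receptivity, read -3.85, -4.61, -4.99 and -3.17 at day 2 and -5.71, -0.22, -1.95 and -4.37 at day 4, with day 4 replicates 2 and 3 above all day 2 arrays, replicate 4 among them and replicate 1 below.

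Secretory and receptivity genes had 34 with a probe of 41 listed, and 26 were measured. Among these, 14 had higher and 12 lower means at day 4, with a median of 0.24, and 0 passed the threshold. GPX3, a secreted selenium-dependent peroxidase, was the 1 member without overlap (1.99% of all features in that direction), at 0.15, 0.22, 0.02 and -0.90 on the day 2 arrays and 1.39, 2.38, 2.94 and 0.98 on the day 4 arrays. Its difference was 2.05 ± 0.62 (adjusted p = 0.696, limma), with 2.92 on slide 7 and 1.87 on slide 8. Of the 6 metallothioneins measured, which bind zinc and copper, all had higher means at day 4, against 48.8% of all features, with a median of 0.68. The high arrays were day 4 replicates 1 and 2, with mean levels of 2.29 and 2.91, against 0.92 and 0.70 on replicates 3 and 4 and 0.52 to 1.21 at day 2. On slides 7 and 8 the median was -0.87 and -0.34. MT2A and MT1X, the members with the smallest p-values, differed by 1.66 ± 0.79 and 0.90 ± 0.64, and the probe for MT1X is described in the file as metallothionein 1H, so the near-identical members cannot be told apart with certainty.

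**Figure D3:**
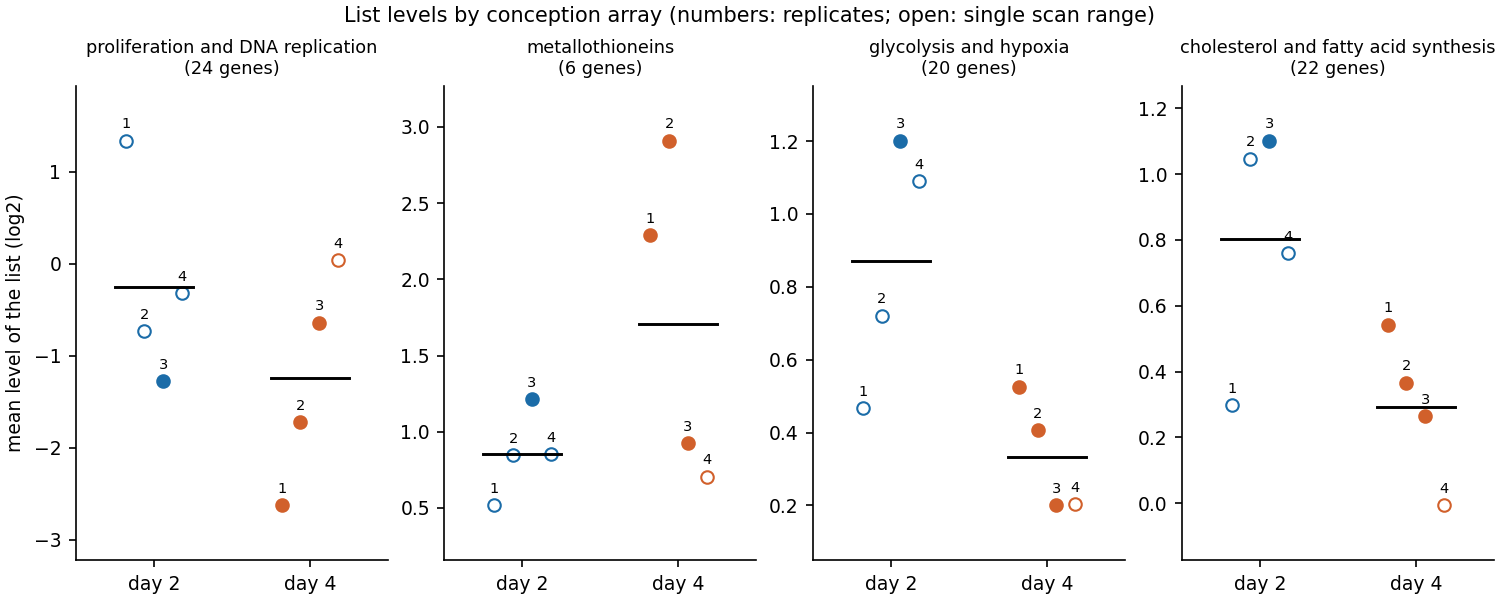
Mean level of 4 gene lists on each of the 8 arrays. The vertical axis is the mean of log2 signal minus the array's 75th percentile over the measured genes of a list; points are arrays, numbered by replicate and open where scanned over a single range, and bars are means of 4. The metallothionein points of day 4 replicates 1 and 2 lie above the rest, and those replicates hold the lowest proliferation levels.

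Cell cycle genes gave the largest list difference, and it did not hold within the slides. Of 35 listed genes 27 had a probe and 24 were measured, and all 24 had a lower mean at day 4, against 51.2% of all features. The median difference was -1.06, yet 0 members passed the threshold and 1 reached an unadjusted p under 0.05, against 3.41% of all features lower at that level. The mean level of the list was 1.34, -0.73, -1.28 and -0.32 on day 2 arrays 1 to 4 and -2.62, -1.72, -0.64 and 0.04 on day 4 arrays 1 to 4. Day 2 replicate 1 was the highest of the 8 and day 4 replicates 1 and 2 the lowest, while the remaining arrays of both days overlapped. On slide 7 the median difference was 0.68 and on slide 8 it was 0.46, both higher at day 4, and on scan day 2 it was -2.56. With scan range as a covariate the median was -0.40.

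Single cell cycle genes followed the same arrays. TOP2A, the topoisomerase of dividing cells, read 3.38, 0.76, 0.80 and 1.96 at day 2 and -1.95, -0.29, 1.85 and 2.46 at day 4. Day 4 thus held both the lowest TOP2A level and the highest but 1. NUSAP1, a spindle protein, had the smallest p of the list, was well above background on 1 day 4 array and read -0.48, -3.48, -4.02 and -1.82 at day 2 and -6.03, -5.63, -2.69 and -4.39 at day 4. CENPE, a kinetochore motor, differed by -1.42 ± 0.81, and MCM2, a subunit of the replicative helicase, by -0.04 ± 0.65. BIRC5, the apoptosis inhibitor survivin, was the 1 member without overlap, against 2.24% of all features, at -0.72 ± 0.42. MKI67, the proliferation marker, was well above background on 1 day 2 array and on 0 day 4 arrays and was not tested. Genes of the estrogen-driven phase had a median of -0.09 over 9 measured of 19 listed. CCND1, cyclin D1, read 3.59, 3.97, 3.67 and 3.17 at day 2 and 2.14, 2.54, 3.97 and 3.91 at day 4, where replicates 1 and 2 were again the low ones.

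Genes of cholesterol and fatty acid synthesis had lower medians at day 4 on both shared slides. The list held 29 genes, 22 of them measured, and 19 of the 22 were lower, against 51.2% of all features, with a median of -0.61. 4 reached an unadjusted p under 0.05, all lower, and 3 had no overlap, against 3.41% and 2.24% of all features in that direction. The median was -0.70 on slide 7, -0.69 on slide 8 and -0.21 on scan day 2. The mean level of the list was 0.30, 1.05, 1.10 and 0.76 on the day 2 arrays and 0.54, 0.37, 0.26 and -0.01 on the day 4 arrays. Day 2 replicate 1 fell inside the day 4 range, and the other 3 day 2 arrays stood above all day 4 arrays.

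PMVK, the mevalonate pathway kinase that makes mevalonate diphosphate, read -0.12, 0.20, 0.27 and 0.46 at day 2 and -0.86, -0.78, -0.37 and -0.58 at day 4. PMVK arrays of the days did not overlap, and the difference was -0.85 ± 0.24 (adjusted p = 0.610, limma). MVK, the enzyme before it, differed by -1.07 ± 0.41, with 1 day 4 array inside the day 2 range. FDPS, which makes farnesyl diphosphate, read 3.53, 4.19, 3.44 and 3.47 against 2.86, 3.17, 2.11 and 3.43, a difference of -0.76 ± 0.31. LSS, which closes the sterol ring, read 0.82, 1.64, 0.92 and 0.64 against 0.50, 0.62, 0.30 and 0.12, a difference of -0.62 ± 0.27. The 3 members with higher means were HSD17B7, ACLY and SREBF1.

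Glycolytic enzymes and hypoxia genes gave a similar picture. Of 25 listed genes 22 had a probe and 20 were measured. Lower means at day 4 were found in 17 of the 20, against 51.2% of all features, with a list median of -0.57. On slide 7 the median was -0.92, on slide 8 -1.08 and on scan day 2 -0.28. The mean level of the list was 0.47, 0.72, 1.20 and 1.09 at day 2 and 0.53, 0.41, 0.20 and 0.20 at day 4. As for cholesterol synthesis, day 2 replicate 1 was the low array of its group and lay within the day 4 range.

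GPI, which interconverts glucose and fructose phosphates, read 3.24, 3.17, 3.94 and 3.81 at day 2 and 2.76, 2.69, 3.02 and 2.25 at day 4, a difference of -0.86 ± 0.26 without overlap (adjusted p = 0.696, limma). PFKL, the liver form of phosphofructokinase, read 2.64, 2.35, 2.78 and 2.47 against 2.05, 2.07, 2.21 and 1.34, also without overlap. GPI and PFKL were the 2 members of the list without overlap, against 2.24% of all features in that direction. LDHA, lactate dehydrogenase, read 2.30, 2.25, 3.51 and 3.52 at day 2 and 1.44, 1.95, 1.87 and 2.80 at day 4, with overlap through day 4 replicate 4. SLC2A1, the basal glucose transporter GLUT1, differed by -0.83 ± 0.35, and SLC2A12, another glucose transporter, by 1.36 ± 0.48. PGAM1 (-0.96 ± 0.41) and LDHA (-0.88 ± 0.40) were 2 more of the 5 lower members with an unadjusted p under 0.05, where 3.41% of all features were lower at that level, and NDRG1, a hypoxia-induced gene, was the 1 higher member at 1.32 ± 0.60.

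**Figure D4:**
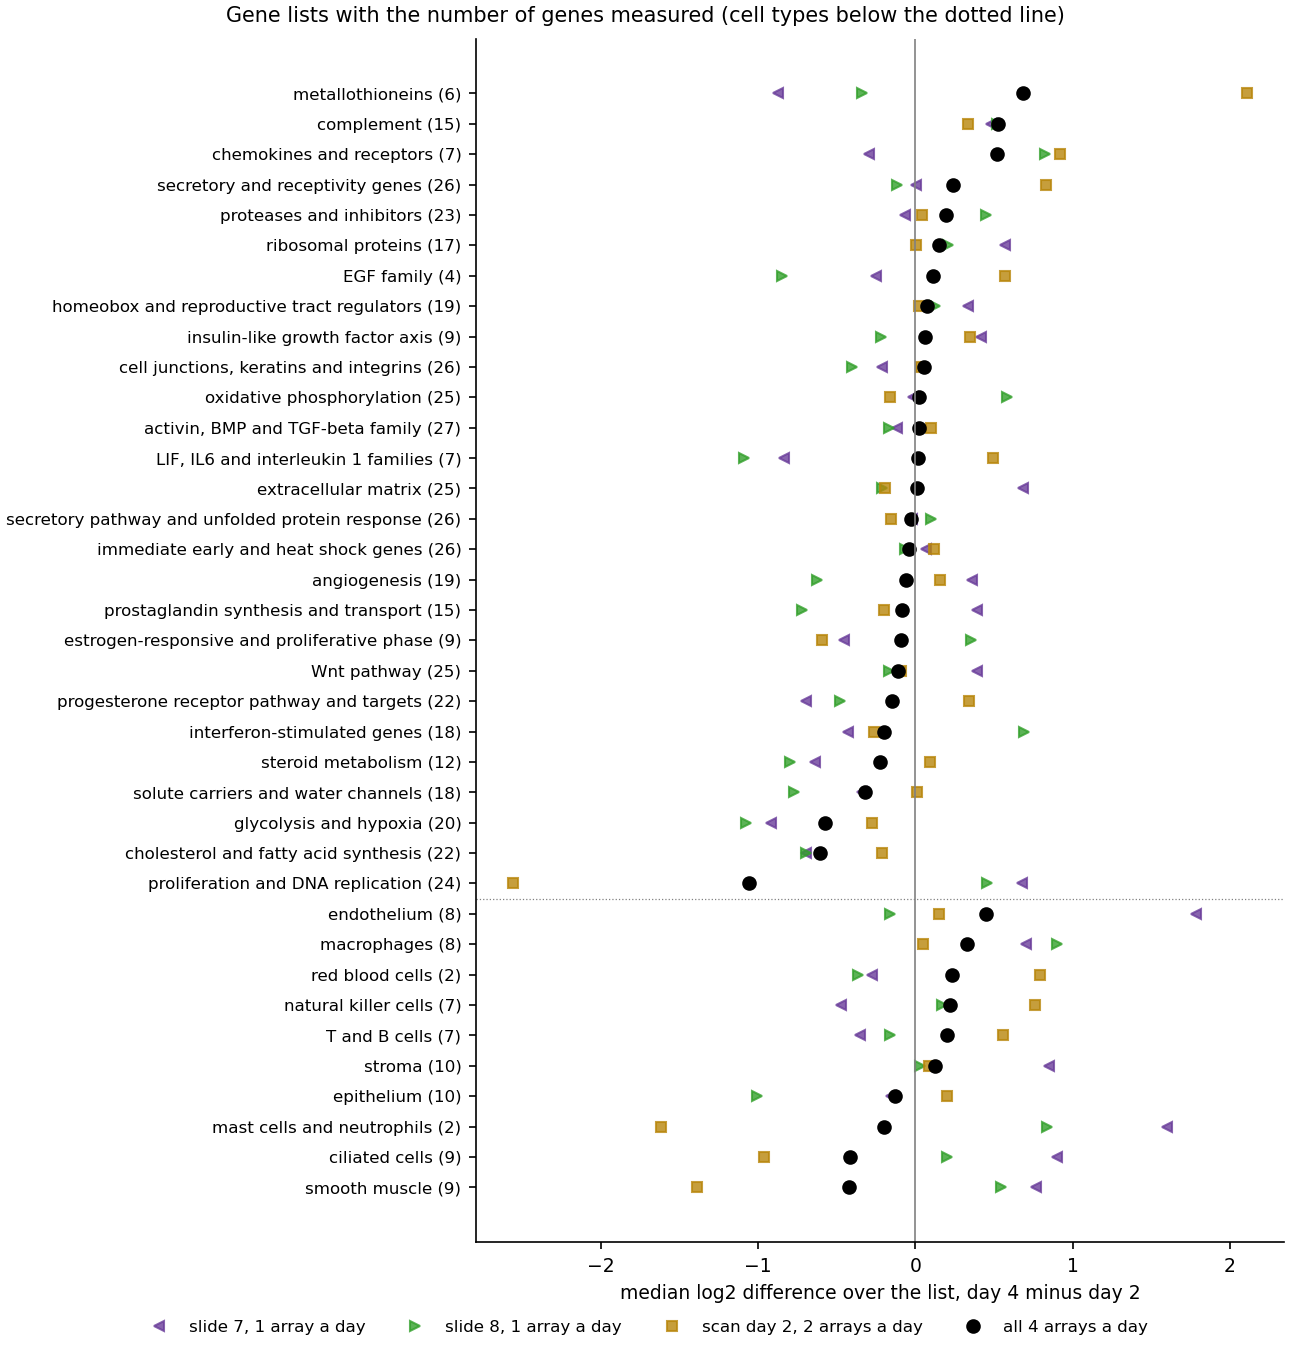
Median log2 difference (day 4 minus day 2) of each gene list, with the number of genes measured in brackets. Circles use all 4 arrays a day, triangles the single pair of arrays on slide 7 or slide 8, and squares the 2 arrays a day of scan day 2. Cholesterol synthesis and glycolysis lie left of 0 in every set, whereas proliferation and metallothioneins lie on opposite sides in the slides and on scan day 2.

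The signalling families had 0 members past the threshold. The activin, BMP and TGF-beta list had 27 of 36 genes measured, 14 higher and 13 lower, with a median of 0.02, and FSTL3 was its leading member. In that list 3 members reached an unadjusted p under 0.05 (limma), all lower, against 3.41% of all features in that direction. Without overlap were 2 lower members and 1 higher, against 2.24% and 1.99% of all features. NOG, the BMP antagonist noggin, read -1.43, -1.84, -1.64 and 1.09 at day 2 and -5.87, -2.16, -5.62 and -3.98 at day 4, well above background on 2 of the day 4 arrays, without overlap but with wide spread (-3.45 ± 1.36; adjusted p = 0.808, limma). Wnt genes had 25 of 37 measured, with a median of -0.11. At an unadjusted p under 0.05 (limma) 1 was higher and 2 were lower, against 2.73% and 3.41% of all features. SFRP5, a secreted Wnt antagonist, read 0.79, -2.48, -4.27 and -0.02 at day 2 and -6.32, -5.63, -4.62 and -5.52 at day 4, where it was well above background on no array. SFRP5 was at least 9.33-fold higher at day 2, although day 2 replicate 3 lay close to the highest day 4 array. The bound was 17.7-fold without day 2 replicate 3 and 5.51-fold without day 2 replicate 1, and the measured difference was -0.35 on slide 7 and -5.5 on slide 8. WNT7A, a ligand of luminal epithelium, differed by -1.61 ± 0.65. EGF family genes (4 measured) and insulin-like growth factor genes (9 measured) had medians of 0.11 and 0.06, with ERBB2 at 0.27 ± 0.36, ERBB3 at 0.38 ± 0.52, IGFBP3 at 0.67 ± 0.44 and IGF2 at 0.41 ± 0.36.

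Chemokine, complement and interferon-stimulated genes showed no member past the threshold. All 7 chemokine genes measured, of 23 listed, had a higher mean, as did 48.8% of all features. The chemokine median was 0.52, with -0.30 on slide 7 and 0.82 on slide 8. After normexp background correction in place of the processed signal it was -0.44, against -0.23 over all features. CXCR4, the receptor for CXCL12, read 0.43, -0.48, 0.70 and 0.23 at day 2 and 0.03, 2.54, 2.28 and 1.06 at day 4, and its second probe gave 1.24 against 1.26. CXCL13, which attracts B cells, was well above background on 1 day 2 array and 3 day 4 arrays. Of 15 complement genes measured, 12 had higher means, against 48.8% of all features. The complement median was 0.53, with 0.48 on slide 7, 0.52 on slide 8 and 0.33 on scan day 2. C1R, which starts the classical pathway, read 1.53, 1.10, 1.89 and 1.39 at day 2 and 2.02, 2.57, 1.89 and 1.97 at day 4, separated by less than the rounding of these values, with a difference of 0.64 ± 0.29. C4BPA, a complement regulator, read -1.03, -0.64, -2.95 and -5.64 at day 4, so only replicates 1 and 2 were high. Interferon-stimulated genes had a median of -0.20 over 18 measured, with IFITM1 at -1.20 ± 0.45 and PSMB8 at 0.82 ± 0.36. Both were without overlap, against 2.24% of all features in the lower and 1.99% in the higher direction. The LIF, IL6 and interleukin 1 families had 7 of 21 genes measured and a median of 0.02, with IL11RA at -0.70 ± 0.54.

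Markers of other cell types were set beside these lists. After normexp the medians of macrophage, endothelial and T and B cell markers were -0.14, -0.22 and -0.54, against -0.23 over all features. Macrophage markers had higher means at day 4 in 7 of 8 measured genes, against 48.8% of all features. Their median was 0.33, with 0.70 on slide 7 and 0.90 on slide 8. The mean level of the list ranged from -2.33 to -0.95 at day 2 and from -1.55 to -1.15 at day 4, so the groups overlapped. MRC1, the mannose receptor, differed by 0.80 ± 0.30 and AIF1 by 0.64 ± 0.46. The part of macrophage number in the complement values was not tested. Endothelial markers were higher in 7 of 8, with a median of 0.45 that was 1.78 on slide 7 and -0.16 on slide 8, with TEK at 0.97 ± 0.38 and ESAM at 0.70 ± 0.38. Natural killer cell markers had a median of 0.22 over 7 genes, with KLRC1 at 1.21 ± 0.47 and NCAM1 at 0.54 ± 0.39, and T and B cell markers one of 0.20 over 7, with CD8A at 0.80 ± 0.40 and CD2 at 0.83 ± 0.47. Only 2 markers each were measured for red blood cells (AHSP at 0.55 ± 0.28, HBB at -0.08 ± 0.99) and for mast cells and neutrophils (S100A9 at -1.0 ± 0.65, HDC at 0.59 ± 0.91).

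Epithelial markers had a median of -0.13 over 10 genes, and the mean level of the list ranged from 1.44 to 2.22 at day 2 and from 0.88 to 2.10 at day 4. KRT18, a keratin of simple epithelium, read 4.36, 4.89, 4.59 and 4.74 at day 2 and 3.56, 3.50, 3.66 and 3.60 at day 4. Its groups did not overlap, and the difference was -1.07 ± 0.49 (adjusted p = 0.808, limma), whereas EPCAM, an adhesion molecule of all epithelia, had a higher mean, by 0.68 ± 0.47. KRT7 differed by -1.35 ± 0.60. CLDN23, a claudin of epithelial junctions, read 0.24, 0.56, 0.55 and 1.14 at day 2 and -0.36, -0.76, -0.85 and -1.62 at day 4, a difference of -1.52 ± 0.46 without overlap (adjusted p = 0.696, limma). Stromal markers had a median of 0.13 over 10 genes. DIO2, a deiodinase of decidualizing stroma, read 3.05, 2.43, 3.01 and 3.82 at day 2 and 2.16, 2.98, 6.31 and 5.68 at day 4, so it was high on replicates 3 and 4 alone. LUM, the matrix protein lumican, differed by -0.96 ± 1.08. Smooth muscle markers had a median of -0.42 over 9 genes that was 0.77 on slide 7 and 0.55 on slide 8, with SMTN at -0.86 ± 0.37 and CALD1 at 0.43 ± 0.29.

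The remaining lists had medians between -0.32 and 0.19. Solute carriers and water channels, at -0.32, included AQP3, a glycerol channel of epithelium, at -1.35 ± 0.57. Steroid metabolism had a median of -0.22. Prostaglandin genes had a median of -0.08, with HPGDS at 0.67 ± 0.43. TBXAS1, thromboxane synthase, was well above background on 3 day 2 arrays and on 0 day 4 arrays, at least 1.38-fold higher at day 2. CREB3L1, a factor of the secretory pathway, read -1.69, -1.99, -0.92 and -1.69 at day 2 and -2.10, -3.14, -3.04 and -3.66 at day 4, without overlap (-1.41 ± 0.44; adjusted p = 0.723, limma), within a list whose median was -0.03 and in which SDF2L1 differed by -0.69 ± 0.39. Matrix genes had a median of 0.01, with LAMB1, a laminin chain, at 0.56 ± 0.24 without overlap and TNC, tenascin C, at -1.54 ± 1.13. Oxidative phosphorylation had a median of 0.03 and ribosomal proteins one of 0.15, with NDUFV1 at -0.38 ± 0.28, NDUFV2 at 0.30 ± 0.27, RPLP1 at 0.42 ± 0.28 and RPL27 at 0.30 ± 0.22. Proteases and inhibitors had a median of 0.19, with CTSL at 0.68 ± 0.32 and A2M at 0.94 ± 0.48. Angiogenesis genes had a median of -0.06, with THBS1 at -1.10 ± 0.45, and homeobox genes one of 0.07, with MEIS1 at 0.51 ± 0.26 and PAX2 at -1.33 ± 0.82, whose second probe gave -1.61. Cell junction genes had a median of 0.06, and immediate early and heat shock genes one of -0.04.

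The day 4 arrays themselves differed by scan day. The mean of day 4 replicates 1 and 2 and that of replicates 3 and 4 lay more than 1 unit apart for 2366 features (20% of all), and 10% did in the same split of the day 2 arrays. The median SD over features was 0.51 at day 4 and 0.43 at day 2. Over all features the differences on slide 7 and slide 8, which rest on separate arrays, had a Pearson correlation of 0.18 and a Spearman rank correlation of 0.13, and 54.8% had the same sign. The differences on scan day 1 and scan day 2 had a Pearson correlation of -0.07 and a Spearman rank correlation of -0.000655, with 51.7% of the same sign. Features of 1 array share its scan and RNA and are not independent replicates, so no test was made.

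In non-mated cycles the same day 4 minus day 2 difference was computed to ask whether the conception values were particular to conception. Non-mated day 2 replicate 3 had 4.33% of its probes well above background, and day 4 replicates 1 and 2 had 37.9% and 21.8%, so results come with and without these 3 weak arrays. By limma, 0 of 11853 features (0%) passed for the difference between the cycle types, with all 24 arrays and without the weak ones, and 139 (1.17%) and 365 (3.08%) had an unadjusted p under 0.05. Across the 20 leading genes the adjusted p without the weak arrays was 0.995 or above. These genes were chosen by their conception values, which makes a smaller non-mated value likely for any of them.

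**Figure D5:**
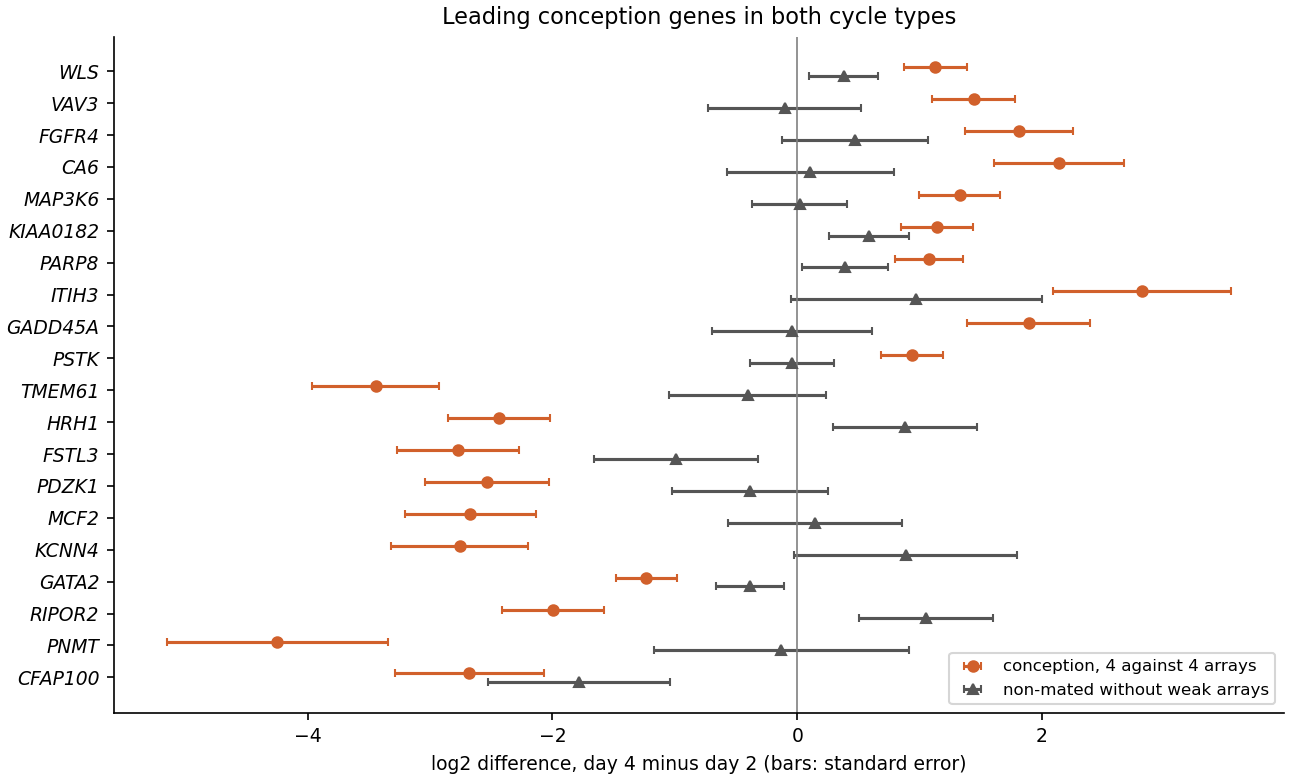
Log2 difference (day 4 minus day 2) of the 20 leading genes in conception cycles (circles, 4 arrays a day) and in non-mated cycles without the weak arrays (triangles, 3 arrays at day 2 and 2 at day 4). Bars are standard errors. Of the genes lower at conception day 4, HRH1, MCF2, KCNN4 and RIPOR2 have non-mated values above 0, and CFAP100 lies below 0 in both.

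HRH1 differed by -2.44 in conception cycles and by 0.88 in non-mated cycles without the weak arrays, a gap of -3.32 ± 0.74 (unadjusted p = 0.000287, adjusted p = 0.995, limma). RIPOR2 showed a gap of -3.05 ± 0.70 and TMEM61 one of -3.04 ± 0.81, both with an adjusted p of 0.995 (limma). The gaps with all 24 arrays were smaller, at -2.39 ± 0.88 for HRH1 and -2.41 ± 1.05 for RIPOR2. CFAP100 differed by -2.68 in conception and, without the weak arrays, by -1.78 in non-mated cycles, and FSTL3 by -2.77 and -0.99. With all 24 arrays, the smallest p-values for a higher difference in conception cycles belonged to MTARC2 (1.54 ± 0.44), GADD45A (2.71 ± 0.78), ARID5B (1.72 ± 0.50), ZNF217 (1.91 ± 0.62) and TESC (2.00 ± 0.66). Without the 3 weak arrays these became 1.29 ± 0.39, 1.94 ± 0.83, 1.27 ± 0.47, 1.21 ± 0.58 and 1.44 ± 0.73 in that order. The conception difference of MTARC2 itself was 0.28 ± 0.27, and its 2 other probes gave -0.06 and -0.12. Those for a lower difference were PNMT (-3.46 ± 1.13), FSTL3 (-2.39 ± 0.78), TMEM61 (-2.45 ± 0.81), CYB5R1 (-3.06 ± 1.10) and RAB1B (-1.84 ± 0.67). Without the weak arrays PNMT gave -4.12 ± 1.32, FSTL3 -1.78 ± 0.85, CYB5R1 -2.33 ± 1.10 and RAB1B -0.76 ± 0.61, the last with an unadjusted p of 0.228 (limma). CYB5R1, a cytochrome b5 reductase, read 2.61, 3.01, 3.28 and 3.43 on conception day 2 and 0.23, 0.18, -2.42 and 1.14 on conception day 4, without overlap.

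The day 6 arrays of conception cycles are given for some of the leading genes as levels alone. These genes were chosen by their day 2 and day 4 values, in a fit that also held the day 6 arrays. That makes a day 6 level on the day 4 side of day 2 likely for any of them. HRH1 read -5.57, -5.68, -6.21 and -5.75 at day 6, below its day 2 range on every array, but it was well above background on none of them. GATA2 read 2.58, 2.95, 2.27 and 2.84 at day 6, also below every day 2 array. FSTL3 read 2.05, 1.60, 1.45 and 3.08, where replicate 4 reached into the day 2 range. PNMT read -2.60, -5.68, -4.01 and -0.95, below day 2 on all 4 arrays but widely spread, and was well above background on 3 of them. WLS read -0.37, 0.53, 0.26 and 0.13, above every day 2 array. Other leading genes had a day 6 array inside the day 2 range. They included KCNN4 (-2.43 on replicate 4), MCF2 (-4.39 on replicate 3) and RIPOR2 (-5.01 on replicate 1).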

How the data were processed

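The authors deposited 1 Agilent Feature Extraction file per array with a fluorescence intensity per spot. Per the file headers the software was version 9.5.3.1, with local background subtraction, while version 10.7.3.1 stands in the submitters' processing notes. A table of log2 values, likewise deposited and of unknown centring (column medians of -0.406 to 0.0741 on the 8 arrays, correlation of array differences with the scanner values rounding to 1), served as an alternative. Flags, slide, scan day and scan range were read from the same deposited files, and no column was left unmapped.

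Control spots and outlier spots were dropped and the 2 spots of each of 20217 probes averaged. The log2 processed signal minus the array's 75th percentile was the level. A probe was kept if well above background on 3 or 4 of the 4 arrays in conception day 2 or in conception day 4 (12405 probes), the brightest probe stood for a gene, and probes without a symbol were kept alone. Group means of the 12 conception arrays were fitted with limma 3.58.1 in R 4.3.3 (9 residual degrees of freedom), testing both directions, with Benjamini-Hochberg adjustment. The difference between cycle types was fitted on 24 arrays. The fit was tested on simulated data. Symbols came from the files, a RefSeq gene table and 2 hand-written tables; probe positions are on rheMac2 as deposited, and exon annotation of that build was not used here.

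The members, gene lists and the rule for named genes were chosen with earlier results of these data known. That rule took the 10 smallest p-values in each direction where fewer than 5 genes passed, the 2 smallest of each list, the 5 smallest in each direction for the difference between cycle types, and PAEP, SPP1, LIF, PGR, ESR1 and MKI67. Replicate numbers were not used as pairs in the main fit, since the labels do not say what they mark. Replicates 3 and 4 of each conception day shared slide 7 and slide 8. Deviations of same-numbered day 2 and day 4 arrays from their group means correlated at -0.18, 0.29, 0.05 and -0.15. Whether a number marks a shared animal was not tested. Alternatives covered normalization, filters, samples, scan range, slide, scan day, replicate block and each array left out. Some genes of the lists are not reported here.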

Additional observations from a re-analysis of the deposited data

Results flagged for a closer look

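In 260 sets of 4 arrays (the named genes and list means at day 2 and day 4), 17 had 1 array far from the other 3 by Dixon's ratio, where chance flags about 1 in 20. At day 2 these were replicate 1 for FSTL3 (level 2.35) and IGF2 (1.76), replicate 2 for HSD11B2 (5.65) and for the list means of immediate early genes (0.89) and smooth muscle (3.56), replicate 3 for CA6 (-4.03), RIPOR2 (-5.05), MEIS1 (0.11) and the mean of the progesterone list (1.42), and replicate 4 for MTARC2 (-0.80) and NOG (1.09). At day 4 they were replicate 1 for A2M (0.47) and the smooth muscle mean (0.062), replicate 2 for the chemokine mean (-0.82), and replicate 4 for ITIH3 (-2.56), TESC (-0.032) and LAMB1 (3.68).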

How the results depend on the processing

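For conception day 4 against day 2, 0 features passed by limma under each alternative except those named here, with 320 (all 24 arrays) to 1015 (replicate block) at an unadjusted p under 0.05. The lowest adjusted p came close to the threshold in 2 of these fits (limma). It was 0.0508 on the 8 arrays of day 2 and day 4 alone and 0.0514 with all 24 arrays. With no filter on dim probes 2462 passed, 83 of them lower, with a lowest adjusted p of 0.0479. Of those 2462, 2191 were well above background on none of the 8 arrays and 1146 shared 1 identical difference, and 109 were among the features tested otherwise. Leaving out 1 array gave 0 to 4. The lowest adjusted p (limma) then ran from 0.0143 without day 6 replicate 4 to 0.976 without day 2 replicate 4. It was 0.689 without day 2 replicate 2. Without day 2 replicate 4, 390 features had an unadjusted p under 0.05. Fits on only scan day 1 or only scan day 2 arrays, chosen after seeing the data, gave 0 (990 and 650 unadjusted). With the replicate number as a block the count was 0 (1015 unadjusted) for the days and 0 (162 unadjusted) for the difference between cycle types, which stayed at 0 under every alternative run. Normexp with an offset of 50 moved the median of all features to -0.23.

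Of 2663 recomputed values of the 93 named genes, 2590 kept their direction and side of the threshold, 33 passed it (27 with no filter) and 40 in 27 genes took the other direction, none of them past the threshold; the cause was not tested, except for MTARC2. Under normexp these were CA6 -0.56, PSTK -0.32, CXCL13 -0.44, HPGDS -0.55, ERBB3 -0.44, TEK -0.46, SLC2A12 -0.17, CALD1 -0.58, ESAM -0.023, MRC1 -0.22, AIF1 -0.52, KLRC1 -0.71, NCAM1 -0.81, CD8A -0.54, CD2 -0.41, HDC -0.92, AHSP -0.50 and HBB 0.17. In the authors' deposited table MTARC2 was -0.061, because another of its probes was taken as the brightest on that scale, and under quantile normalization SPP1 was 0.0020. With slide as a fixed block they were SPP1 0.12, CENPE 0.064, CCND1 0.52, ERBB2 -0.27, MT1X -0.34, TNC 0.35, C4BPA -0.041 and LUM 1.98, and with scan range as a covariate ERBB2 -0.17, ERBB3 -0.10, LUM 0.018 and HBB 0.21. Leaving out 1 array moved SPP1 between -1.27 and 1.28 (other direction without day 2 replicate 3, day 4 replicate 1 or day 4 replicate 4), ERBB3 between -0.049 and 0.78 (without day 4 replicate 3), and HBB between -0.40 and 0.32 (without day 2 replicate 3 or 4, or day 4 replicate 1 or 3).

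Over 29 alternatives the median of the glycolysis list lay between -1.01 and -0.53, that of cholesterol and fatty acid synthesis between -0.80 and -0.37 and that of complement between 0.15 and 0.58. The proliferation median ranged from -1.52 to 0.59 and the metallothionein median from -0.55 to 1.09. Signal over background limits the dim genes: the lowest level differed between arrays, and 4 arrays a day limit the precision.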
